A study of Arabidopsis thaliana with 16 samples.

Results

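Leaves of wild type *Arabidopsis thaliana* (ecotype Col-0) that had gone 10 days without water were compared with leaves of wild type under control conditions. The comparison held 8 of the 16 arrays of the series, 4 titled as wild type drought and 4 titled as wild type control, and all 27827 genes measured on them. Plants of both groups were raised on soil in short days of 8 h light and 16 h dark, the drought began at 6 weeks, and by the methods the control plants were of the same total age at harvest. The sample records and a legend in the paper instead give 6 weeks of growth for the watered wild type. By these sources the drought plants could have been 10 days older, and age and drought could then not be told apart. Both groups were untransformed, and no agent other than the withdrawal of water was applied. The other 8 arrays, from watered amiNaa10 plants and from plants labelled amiNaa15, entered only the common estimate of the spread. The labels call the 4 arrays of a group biological replicates, without the number of plants behind each array or the hour of sampling.

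A leaf that dries out accumulates the hormone abscisic acid (ABA), which closes stomata and switches on genes for protective proteins. The signal passes through ABA receptors that inhibit clade A protein phosphatases (PP2C), which otherwise hold the pathway off. Drought also slows growth, in which enzymes loosen the cell wall and water channels admit water, and a prolonged drought leads to senescence, in which chloroplasts are dismantled and their nitrogen is exported.

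Values are log2 signals, so a difference of 1 is a 2-fold change, and where 4 values are given they follow the replicate numbers. To be called, a gene needed a change over 1.5-fold and an adjusted p (limma, Benjamini-Hochberg) under 0.05. In drought, 1745 genes were called higher, which was 6.27% of all genes, and 1991 were called lower, which was 7.15%, together 13.4%. More than 2-fold changes were called for 441 genes in the higher direction and for 853 in the lower direction. The 4 drought arrays did not overlap the 4 control arrays for 6915 genes (24.8%), of which 3197 were called. The median log2 change over all genes was 0.03. Probes of close relatives in a gene family can share target sequence, so values of near-identical members may not be independent of each other. In RNA of whole leaves, fewer cells of a type and less RNA per cell cannot be told apart.

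Across genes, drought arrays correlated with one another at 0.971 to 0.989 and control arrays at 0.985 to 0.987, and a drought array with a control array at 0.959 to 0.977. Drought replicates 3 and 4 stood apart from each other. Between them 1660 genes differed by more than 1 log2 unit, whereas the other pairs of drought arrays differed in 489 to 939 genes and the pairs of control arrays in 624 to 835. Without drought replicate 3 the count of called genes was 3547, and without drought replicate 4 it was 3885. Both arrays were kept. Markers of mesophyll were high on all arrays, with a mean log2 signal of 11.9 to 12.3 in drought and 12.4 to 12.6 in the control. Those of root, pollen, seed and floral organs averaged 2.42 to 3.65 in drought and 2.41 to 3.58 in the control, and limma called none of their 28 members (4 had an unadjusted p under 0.05, and 2 an adjusted p under 0.05 at less than 1.5-fold), although 1 floral member was called lower without control replicate 2 or drought replicate 2. Among 8 vascular markers, *XCP1* (AT4G35350), *VND7* (AT1G71930) and *CESA4* (AT5G44030) were called lower (log2 changes -1.06, -0.71 and -0.69), and among 5 epidermal markers only *PDF1* (AT2G42840) was (-1.5). *VND7* was not called without control replicate 2 (log2 change -0.58, adjusted p 0.026). *CESA4* was not called without drought replicate 1 or 4 or control replicate 1 or 2 or 3 (log2 change -0.71 to -0.52, adjusted p 0.063 to 0.13). Without control replicate 2 only *XCP1* of the vascular markers was called.

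**Figure D1:**
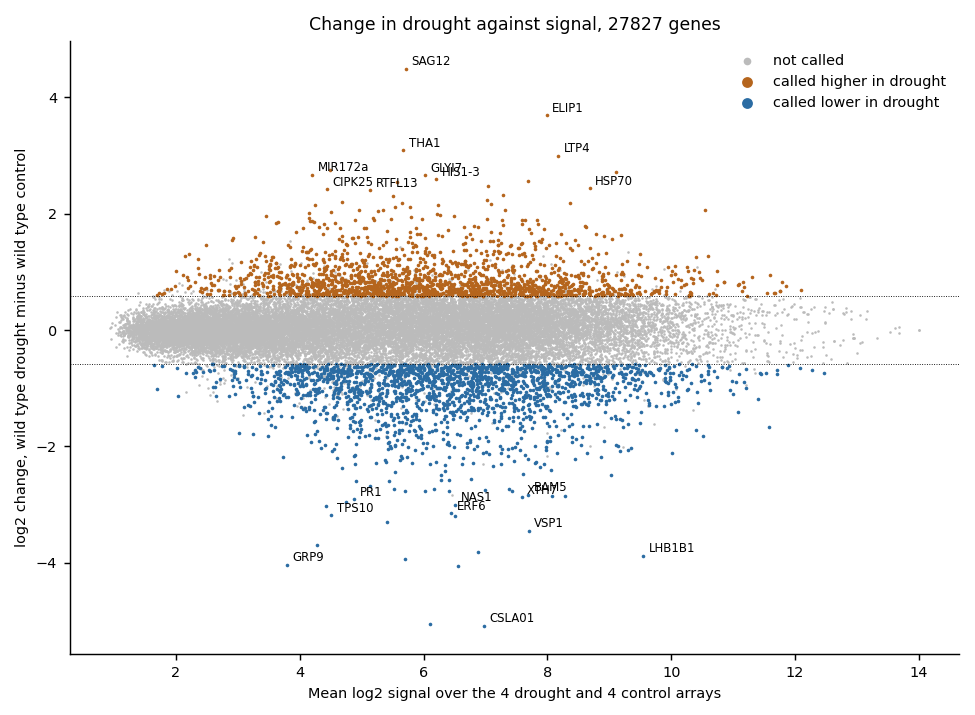
Each point is a gene, with its mean log2 signal over the 4 drought and 4 control arrays on the x axis and its log2 change (drought minus control) on the y axis. Dotted lines mark a 1.5-fold change, and the labelled genes are the 10 called genes that rose most and the 10 that fell most, of those with a symbol and non-overlapping arrays, from *SAG12* at 4.49 to *CSLA01* at -5.08.

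The largest rise belonged to *SAG12* (AT5G45890), which encodes a cysteine protease of senescing leaves and a standard marker of that stage. Its log2 signal was 6.19, 9.9, 8.03 and 7.7 in drought, against 3.79, 3.4, 3.68 and 2.99 in the control (log2 change 4.49 ± 0.96 (SE), adjusted p = 0.003). The drought arrays spread over more than 3 log2 units, with replicate 1 lowest and replicate 2 highest, yet all lay above the control. *ELIP1* (AT3G22840), an early light-induced protein that binds pigments freed in the thylakoid under light stress, gave 9.81, 9.08, 10.16 and 10.26 in drought, against 6.45, 6.27, 5.35 and 6.49 in the control (log2 change 3.69 ± 0.35 (SE), adjusted p = 1e-05). *THA1* (AT1G08630) encodes threonine aldolase, which splits threonine into glycine and acetaldehyde. Its signal was 7.14, 6.9, 8.09 and 6.72 in drought, against 4.34, 3.76, 4.1 and 4.29 in the control (log2 change 3.09 ± 0.23 (SE), adjusted p = 2.4e-06), so the 4 drought arrays lay well above the 4 control arrays. The lipid transfer protein *LTP4* (AT5G59310) changed by 2.99 ± 0.53, adjusted p = 0.00087, the glyoxalase I family gene *GLYI7* (AT1G80160) by 2.65 ± 0.50, adjusted p = 0.0012, the drought-inducible linker histone *HIS1-3* (AT2G18050) by 2.59 ± 0.45, adjusted p = 0.00067 and the kinase *CIPK25* (AT5G25110) by 2.42 ± 0.37, adjusted p = 0.00027. Kinases of this last family are switched on by calcium sensors. The small-peptide gene *RTFL13* (AT3G23635) rose by 2.4, the cytosolic chaperone *HSP70* (AT3G12580) by 2.43 and the microRNA gene *MIR172a* (AT2G28056) by 2.67.

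Among the falls, *CSLA01* (AT4G16590), a member of the glucomannan synthase-like family, changed most. It gave 4.24, 5.0, 5.08 and 3.4 in drought, against 8.51, 9.59, 10.8 and 9.14 in the control (log2 change -5.08 ± 0.86 (SE), adjusted p = 0.00059). The drought values were thus between 3.4 and 5.08 and the control values between 8.51 and 10.8. *GRP9* (AT2G05440), a glycine-rich protein, fell, with 1.43, 2.22, 1.77 and 1.69 in drought, against 5.54, 6.78, 7.2 and 3.73 in the control (log2 change -4.04 ± 0.74 (SE), adjusted p = 0.0011). All 4 drought values lay below a signal of 3, where arrays resolve little, so the size of this fall and its rank are uncertain. *NAS1* (AT5G04950) encodes nicotianamine synthase, which makes a metal chelator for iron transport. Its values were 4.94, 5.54, 4.14 and 5.42 in drought, against 8.5, 8.0, 7.29 and 8.24 in the control (log2 change -3.0 ± 0.29 (SE), adjusted p = 1.2e-05). The vegetative storage protein *VSP1* (AT5G24780), a jasmonate-responsive gene, changed by -3.45 ± 1.03, adjusted p = 0.022, and was not called without drought replicate 1 or 4 or control replicate 3 (log2 change -3.07 to -2.58, adjusted p 0.069 to 0.075). *TPS10* (AT2G24210), a monoterpene synthase, changed by -3.18 ± 0.72, adjusted p = 0.0044, the ethylene response factor *ERF6* (AT4G17490) by -3.15 ± 0.44, adjusted p = 0.00015, and the extraplastidic beta-amylase *BAM5* (AT4G15210) by -2.83 ± 0.76, adjusted p = 0.012. Of the remaining genes of largest fall, *LHB1B1*, *XTH7* and *PR1* are described with their groups.

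The calls among nuclear-encoded genes of the photosynthetic apparatus were in 1 direction, lower in drought. No member of 6 lists was called higher, and 6 of 13 subunits of photosystem II, 8 of 21 light-harvesting proteins, 6 of 12 subunits of photosystem I, 7 of 12 electron transport genes, 9 of 21 Calvin cycle enzymes and 7 of 15 photorespiration genes were called lower, against 7.15% of all genes. The median log2 changes of the lists ran from -0.61 for electron transport to -0.24 for photorespiration, beside 0.03 over all genes. Without drought replicate 3, light-harvesting proteins had 5 calls, photosystem I subunits 2 and electron transport genes 3.

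*LHB1B1* (AT2G34430), which encodes a major light-harvesting protein of photosystem II, carried the largest fall of these genes, with 7.97, 8.15, 6.02 and 8.29 in drought, against 11.62, 11.61, 11.42 and 11.32 in the control (log2 change -3.88 ± 0.35 (SE), adjusted p = 6.1e-06). Drought replicate 3 was about 2 log2 units below the other drought arrays, which themselves lay more than 3 below every control array. The related antenna gene *LHCB2.3* (AT3G27690) followed (log2 change -1.99 ± 0.27 (SE), adjusted p = 0.00013), and so did *LHCB6* (AT1G15820) of the monomeric antenna (log2 change -1.25 ± 0.22 (SE), adjusted p = 0.00066). A further gene of the same family, *LHCB1.1* (AT1G29920), also named CAB2, was near the lower end of the scale in both groups, at 3.52, 2.72, 2.77 and 2.66 in drought, against 3.16, 3.57, 3.22 and 2.55 in the control, and was not called. Of the reaction centre proteins, *PSBQA* (AT4G21280), a subunit of the oxygen-evolving complex, changed by -1.32 ± 0.20, adjusted p = 0.0003, and *PSAN* (AT5G64040), which docks plastocyanin to photosystem I, by -1.11 ± 0.21, adjusted p = 0.0014. In electron transport, the ATP synthase subunit *ATPD* (AT4G09650) changed by -1.11 ± 0.17, adjusted p = 0.00031, the ferredoxin-NADP reductase *FNR2* (AT1G20020) by -1.06 ± 0.18, adjusted p = 0.0007 and the Rieske protein *PETC* (AT4G03280) of the cytochrome complex by -0.89 ± 0.17, adjusted p = 0.0014.

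Of the genes of the rubisco small subunit, 3 neighbours were called lower. *RBCS2B* (AT5G38420) gave 8.03, 8.39, 5.98 and 8.67 in drought, against 10.55, 10.7, 9.72 and 10.11 in the control (log2 change -2.5 ± 0.47 (SE), adjusted p = 0.0012), with the 4 drought arrays below the 4 control arrays and drought replicate 3 lowest. *RBCS3B* (AT5G38410) and *RBCS1B* (AT5G38430), the other two, changed by -1.86 ± 0.25, adjusted p = 0.00011 and by -1.47 ± 0.24, adjusted p = 0.00046. The main leaf isoform *RBCS1A* (AT1G67090) lay at the top of the scale, at 13.25, 13.39, 13.11 and 13.25 in drought, against 13.39, 13.39, 13.39 and 13.39 in the control, and was not called (-0.14 ± 0.08, adjusted p = 0.21). With the same value on all control arrays, a change of this gene may not be resolved. Rubisco activase, *RCA* (AT2G39730), was not called either, at 12.44, 12.42, 12.15 and 12.46 in drought, against 12.49, 12.36, 12.37 and 12.28 in the control (-0.01 ± 0.09, adjusted p = 0.96). Elsewhere in the cycle, *GAPA-2* (AT1G12900) of glyceraldehyde-phosphate dehydrogenase changed by -1.3 ± 0.22, adjusted p = 0.00059 and the phosphoglycerate kinase *PGK2* (AT1G56190) by -1.17 ± 0.12, adjusted p = 1.7e-05. In photorespiration, *GLDT* (AT1G11860) of the glycine decarboxylase complex changed by -1.22 ± 0.18, adjusted p = 0.00021, the plastid dicarboxylate carrier *DiT1* (AT5G12860) by -1.01 ± 0.18, adjusted p = 0.00074 and plastid glutamine synthetase *GS2* (AT5G35630), which refixes ammonium, by -0.87 ± 0.15, adjusted p = 0.00068.

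Chlorophyll synthesis had 13 of 17 members (76.5%) called lower and none higher, beside 7.15% and 6.27% of all genes. The median was -0.71, and all members were below 0. Without drought replicate 3 the count was 8. *HEMA1* (AT1G58290), glutamyl-tRNA reductase at the entry to the pathway, gave 7.55, 7.83, 7.47 and 8.12 in drought, against 9.64, 9.56, 9.28 and 9.1 in the control (log2 change -1.65 ± 0.16 (SE), adjusted p = 1.3e-05). *CHLI1* (AT4G18480) and *GUN5* (AT5G13630), both subunits of the magnesium chelatase at the branch to chlorophyll, changed by -1.33 ± 0.17, adjusted p = 9.7e-05 and by -0.89 ± 0.17, adjusted p = 0.0018. The arrays of either group did not overlap the other for any of these genes. In photoprotection, *ELIP1* was the only one of 10 genes called higher, and 4 were called lower (2 without drought replicate 3), among them the carotenoid enzymes *BETA-OHASE 2* (AT5G52570) (-1.29 ± 0.19, adjusted p = 0.00025) and *LUT2* (AT5G57030), lycopene epsilon-cyclase (-1.12 ± 0.16, adjusted p = 0.00023).

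Of 21 genes of chlorophyll breakdown and leaf senescence, 7 (33.3%) were called higher (4 without control replicate 2) and 3 (14.3%) lower. The shares of all genes were 6.27% and 7.15%. Beside *SAG12*, the cytosolic glutamine synthetase *GLN1;4* (AT5G16570) rose, with 9.24, 9.68, 9.12 and 9.98 in drought, against 7.56, 7.63, 7.77 and 8.02 in the control (log2 change 1.76 ± 0.37 (SE), adjusted p = 0.0026). *NYE2* (AT4G11910), a relative of the stay-green protein that withdraws magnesium from chlorophyll, changed by 1.28 ± 0.32, adjusted p = 0.0086. The senescence regulator *NAP* (AT1G69490) gave 7.64, 7.68, 8.11 and 7.74 in drought, against 7.0, 6.14, 6.47 and 6.64 in the control (log2 change 1.23 ± 0.19 (SE), adjusted p = 0.00037). The related regulator *ORE1* (AT5G39610) gave 6.31, 5.81, 7.58 and 5.71 in drought, against 5.09, 3.96, 5.33 and 5.45 in the control (log2 change 1.4 ± 0.40 (SE), adjusted p = 0.019), and was not called without drought replicate 3 or control replicate 2 (log2 change 0.99 to 1.06, adjusted p 0.058 to 0.068). Opposite to these, *SEN1* (AT4G35770), a dark- and sugar-starvation-induced gene, fell, with 5.71, 5.7, 5.65 and 4.47 in drought, against 7.09, 6.97, 8.02 and 6.95 in the control (log2 change -1.87 ± 0.34 (SE), adjusted p = 0.001). The factor *WRKY53* (AT4G23810), known to promote the early phase of senescence, changed by -1.21 ± 0.26, adjusted p = 0.0028. Members of the list that passed the test therefore lay on both sides.

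Most calls among genes that build and loosen the cell wall were lower in drought. The counts called lower and higher were 10 and 1 of 33 xyloglucan endotransglucosylase/hydrolases, which cut and rejoin the tethers between cellulose fibrils, 7 and 1 of 35 expansins, 10 and 2 of 40 cellulose synthases and related enzymes, 5 and 0 of 28 pectin-modifying enzymes, and 20 and 0 of 50 arabinogalactan proteins. The shares called lower were 30.3%, 20%, 25%, 17.9% and 40%, beside 7.15% of all genes. Those called higher were 3.03%, 2.86%, 5%, 0% and 0%, beside 6.27%. Their medians were -0.33, -0.13, -0.33, -0.08 and -0.37, beside 0.03 over all genes. The single endotransglucosylase called higher was lost without drought replicate 1 or 2 or control replicate 1 or 2, and a pair was called higher without drought replicate 4 or control replicate 4.

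*XTH7* (AT4G37800) gave 5.83, 6.43, 5.35 and 6.98 in drought, against 9.26, 9.27, 8.8 and 8.73 in the control (log2 change -2.87 ± 0.32 (SE), adjusted p = 3e-05). The touch-inducible *TCH4* (AT5G57560), also named XTH22, gave 4.69, 5.45, 5.61 and 5.49 in drought, against 7.35, 8.0, 6.93 and 7.7 in the control (log2 change -2.19 ± 0.28 (SE), adjusted p = 8.6e-05). *XTH4* (AT2G06850) and *XTH6* (AT5G65730) both changed by -2.3, with an SE of 0.25 for the first and 0.51 for the other, whose drought arrays spread from 2.96 in replicate 3 to 6.41 in replicate 4. Of the expansins, *EXPA6* (AT2G28950) changed by -1.3 ± 0.22, adjusted p = 0.00067 and *EXPB1* (AT2G20750) by -1.73 ± 0.40, adjusted p = 0.0054, while *EXLB1* (AT4G17030) rose, with 7.42, 7.36, 8.04 and 7.44 in drought, against 6.03, 5.88, 5.76 and 6.01 in the control (log2 change 1.65 ± 0.19 (SE), adjusted p = 3.2e-05). *EXPA8* (AT2G40610) was not called. Its values were 7.84, 8.18, 5.9 and 8.22 in drought, against 8.01, 7.94, 7.53 and 7.67 in the control, where drought replicate 3 alone lay below the control range and replicates 2 and 4 above it.

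The cellulose synthase *CESA1* (AT4G32410) of the primary wall was at 11.32, 11.21, 11.26 and 11.43 in drought, against 11.44, 11.35, 11.37 and 11.42 in the control, and was not called (-0.09 ± 0.10, adjusted p = 0.59). The falls in that list included synthase-like genes, of which *CSLA03* (AT1G23480) changed by -1.55 ± 0.28, adjusted p = 0.00084 and *CSLD5* (AT1G02730), which takes part in making new walls in dividing cells, by -1.54 ± 0.22, adjusted p = 0.00021. *CSLG2* (AT4G24000) was called higher, with 8.36, 8.18, 9.43 and 6.58 in drought, against 6.11, 5.06, 5.97 and 6.49 in the control (log2 change 2.23 ± 0.53 (SE), adjusted p = 0.0063). Arabinogalactan proteins, heavily glycosylated proteins of the wall and cell surface, had no member called higher. *AGP17* (AT2G23130) gave 4.32, 4.58, 4.22 and 4.89 in drought, against 6.49, 7.01, 6.97 and 6.45 in the control (log2 change -2.23 ± 0.19 (SE), adjusted p = 4.6e-06). *AGP21* (AT1G55330) gave 6.6, 7.33, 6.01 and 6.85 in drought, against 9.22, 8.88, 9.22 and 8.91 in the control (log2 change -2.36 ± 0.24 (SE), adjusted p = 1.5e-05). Among pectin enzymes, the pectin methylesterases *ATPMEPCRB* (AT4G02330) and *PME3* (AT3G14310) changed by -1.73 ± 0.26, adjusted p = 0.00025 and by -1.03 ± 0.20, adjusted p = 0.0016.

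**Figure D2:**
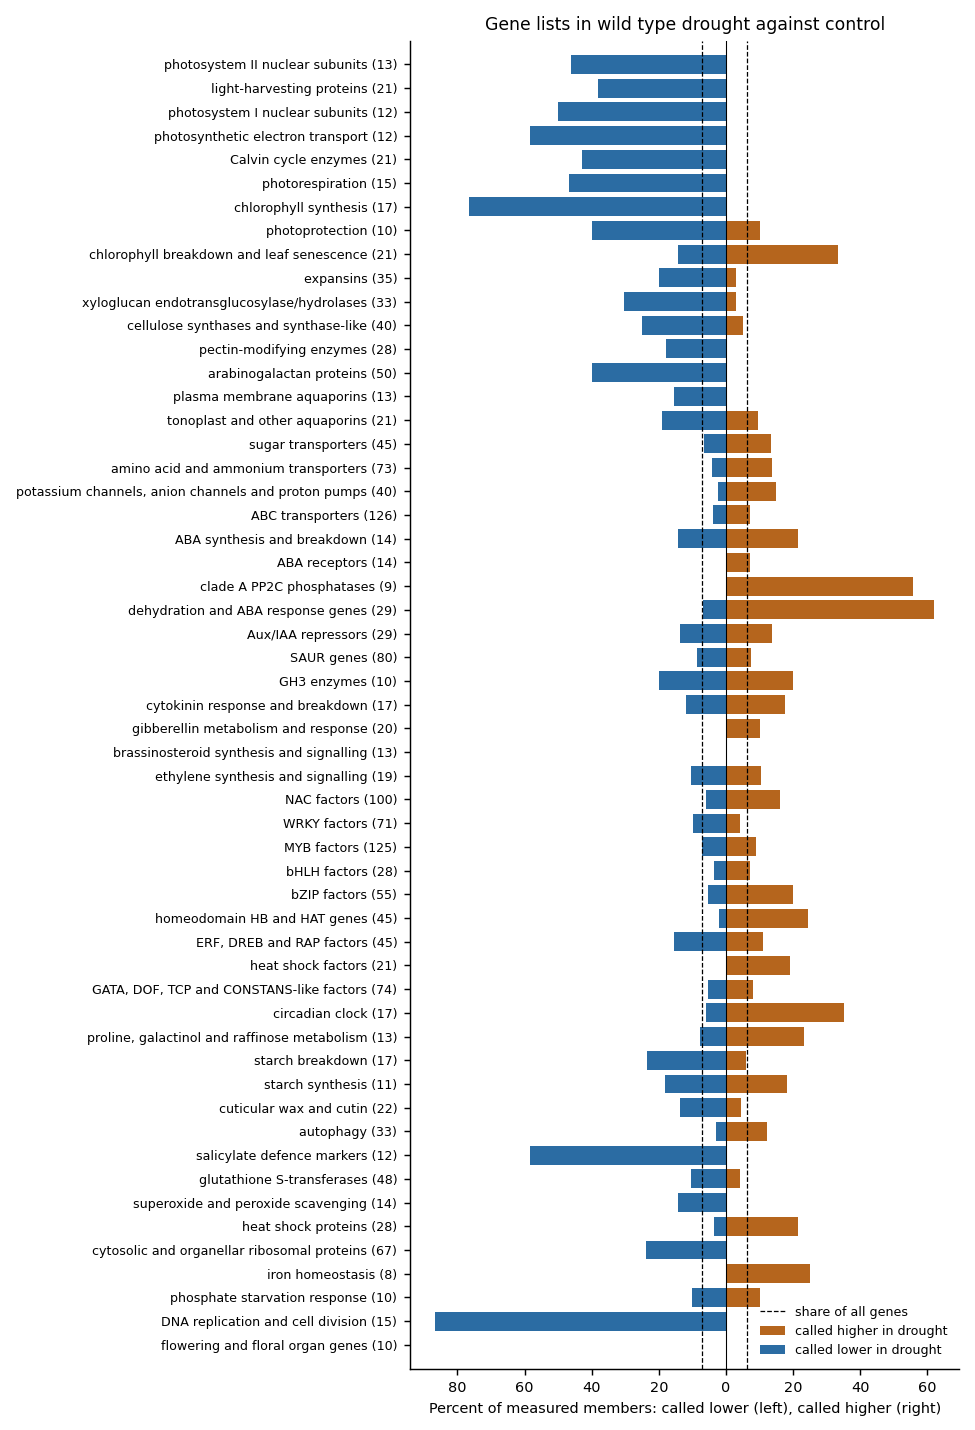
For each gene list, with the number of measured members in parentheses, the bar to the right gives the percent of members called higher in wild type drought and the bar to the left the percent called lower. Dashed lines mark the shares of all genes, 6.27% higher and 7.15% lower, and the bars to the left are longest for DNA replication and cell division (13 of 15) and chlorophyll synthesis (13 of 17), those to the right for dehydration and ABA response genes (18 of 29).

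Cell division genes were lower. Of 15 genes of DNA replication and the cell cycle, 13 (86.7%) were called lower, beside 7.15% of all genes. All were below 0, and the median was -0.91. The count was 6 without drought replicate 1 and 6 when only the 8 wild type arrays were fitted, and the mean of the list relative to the control was -1.37 and -1.28 on drought replicates 1 and 4 but -0.66 and -0.67 on replicates 2 and 3. The replication clamp *PCNA1* (AT1G07370) gave 3.9, 5.66, 5.84 and 4.23 in drought, against 7.18, 7.31, 7.16 and 6.46 in the control (log2 change -2.12 ± 0.35 (SE), adjusted p = 0.00052). *PRL* (AT4G02060), a subunit of the replicative helicase also named PROLIFERA, changed by -1.41 ± 0.23, adjusted p = 0.0004, and the mitotic kinase *CDKB2;1* (AT1G76540) by -1.17 ± 0.24, adjusted p = 0.0026. Tubulin genes were looked up after the values had been seen, and 10 of 15 were called lower, with a median of -0.77. *TUB4* (AT5G44340) gave 7.96, 8.14, 7.96 and 7.89 in drought, against 9.06, 8.83, 8.91 and 8.84 in the control (log2 change -0.93 ± 0.11 (SE), adjusted p = 4.4e-05), while *TUB5* (AT1G20010) fell by 1.27 and *TUB7* (AT2G29550) by 1.14 on the log2 scale.

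Some water channels were called lower in drought. Among 13 plasma membrane aquaporins, *PIP1;5* (AT4G23400) (-1.02 ± 0.23, adjusted p = 0.0046) and *PIP1;3* (AT1G01620) (-1.06 ± 0.29, adjusted p = 0.014) were called lower, 5 members without drought replicate 2 and 4 without control replicate 4. With all arrays 15.4% of the list was called lower, beside 7.15% of all genes. *PIP1;3* was not called when only the 8 wild type arrays were fitted (adjusted p = 0.057). *PIP1;1* (AT3G61430) gave 6.4, 6.75, 6.14 and 6.67 in drought, against 7.06, 6.92, 7.31 and 6.67 in the control, and *PIP2;1* (AT3G53420) gave 6.42, 6.74, 5.97 and 6.58 in drought, against 7.07, 7.08, 7.01 and 6.86 in the control. Their adjusted p-values were 0.049 and 0.025, but their changes were under 1.5-fold, so they were not called. In the vacuolar membrane, *TIP1;1* (AT2G36830), also named GAMMA-TIP, fell, with 6.94, 7.98, 7.08 and 7.26 in drought, against 8.82, 8.87, 8.45 and 8.34 in the control (log2 change -1.3 ± 0.22 (SE), adjusted p = 0.00057). *TIP2;1* (AT3G16240) changed by -1.44 ± 0.26, adjusted p = 0.00083. The boric acid channel *NIP5;1* (AT4G10380) went the other way, with 6.69, 7.03, 6.5 and 6.47 in drought, against 5.84, 5.42, 5.68 and 5.57 in the control (log2 change 1.04 ± 0.16 (SE), adjusted p = 0.00024).

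With all arrays fitted, transporters of nitrogen compounds, ions and sugars were called higher more often than lower, which for sugars depended on single arrays. Of 73 amino acid and ammonium transporters, 10 were called higher and 3 lower, beside 6.27% and 7.15% of all genes. *UMAMIT19* (AT1G21890), of a family of amino acid exporters, gave 4.55, 5.54, 5.56 and 5.17 in drought, against 3.33, 3.79, 3.22 and 3.87 in the control (log2 change 1.65 ± 0.21 (SE), adjusted p = 9.2e-05). In the same direction *UMAMIT11* (AT2G40900) changed by 1.08 ± 0.17, adjusted p = 0.00032, and *PROT2* (AT3G55740), a carrier of proline and betaine, by 0.98 ± 0.18, adjusted p = 0.0013. *UMAMIT12* (AT2G37460) of the exporter family fell (-1.21 ± 0.17, adjusted p = 0.00014).

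Of 40 potassium channels, anion channels, cation exchangers and proton pumps, 6 were called higher and 1 lower (3 lower without drought replicate 2, and 2 without drought replicate 4 or control replicate 2, 3 or 4). With all arrays the shares were 15% and 2.5%, beside 6.27% and 7.15% of all genes. The cation exchanger *CAX7* (AT5G17860) gave 5.27, 5.34, 6.48 and 4.88 in drought, against 3.72, 3.22, 4.09 and 3.57 in the control (log2 change 1.84 ± 0.27 (SE), adjusted p = 0.00022). *GORK* (AT5G37500), the outward potassium channel of guard cells, gave 6.72, 6.32, 6.53 and 6.53 in drought, against 5.98, 5.58, 5.92 and 5.5 in the control (log2 change 0.78 ± 0.17 (SE), adjusted p = 0.0041), and the groups did not overlap for either gene. The potassium carriers *KUP11* (AT2G35060) and *KUP6* (AT1G70300) changed by 0.86 ± 0.10, adjusted p = 5.2e-05 and by 0.94 ± 0.20, adjusted p = 0.003, whereas *KUP5* (AT4G33530) changed by -0.77 ± 0.12, adjusted p = 0.00038.

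Sugar transporters had 6 (13.3%) members called higher and 3 (6.67%) lower of 45, beside 6.27% and 7.15% of all genes. Their median was 0.03, as over all genes. The count higher was 2 without control replicate 2, and 3 without drought replicate 1 or control replicate 4. The phloem-loading sucrose exporter *SWEET11* (AT3G48740) changed by 0.69 ± 0.16, adjusted p = 0.0056, with overlapping groups, and the vacuolar *SWEET16* (AT3G16690) by -1.16 ± 0.22, adjusted p = 0.0012. Among 126 ABC transporters 9 were called higher and 5 lower (8 without drought replicate 4), which was 7.14% and 3.97% of the list beside 6.27% and 7.15% of all genes. *ABCG25* (AT1G71960), which exports ABA from vascular cells, gave 8.0, 7.69, 8.03 and 8.14 in drought, against 6.85, 6.78, 6.81 and 7.07 in the control (log2 change 1.09 ± 0.19 (SE), adjusted p = 0.00084). *ABCG22* (AT5G06530), which affects transpiration, changed by 1.13 ± 0.23, adjusted p = 0.0024, and *ABCG5* (AT2G13610) fell (-1.14 ± 0.24, adjusted p = 0.0025).

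The ABA pathway was higher at its phosphatases and targets and mixed at its synthesis. *NCED3* (AT3G14440), which cleaves the carotenoid precursor of ABA in dehydrated leaves, gave 7.32, 6.89, 7.72 and 6.93 in drought, against 6.62, 6.5, 6.2 and 6.06 in the control (log2 change 0.87 ± 0.28 (SE), adjusted p = 0.035). It was not called without drought replicate 1 or 3 or control replicate 2 or 3 or 4 (log2 change 0.70 to 0.92, adjusted p 0.052 to 0.11), and cyclic loess normalization also lost the call. *ABA2* (AT1G52340), the next enzyme, fell, with 5.44, 5.56, 5.29 and 5.84 in drought, against 6.68, 6.44, 6.41 and 6.13 in the control (log2 change -0.88 ± 0.14 (SE), adjusted p = 0.00039). The ABA 8'-hydroxylases, which break the hormone down, split, with *CYP707A4* (AT3G19270) at 1.06 ± 0.20, adjusted p = 0.0015, *CYP707A1* (AT4G19230) at 1.0 ± 0.24, adjusted p = 0.0062 and *CYP707A3* (AT5G45340) at -1.08 ± 0.30, adjusted p = 0.014. Of 14 receptor genes 1 was called, *RCAR1* (AT1G01360) (0.64 ± 0.19, adjusted p = 0.019), which was not called without drought replicate 2 or 4 or control replicate 2 (log2 change 0.53 to 0.59, adjusted p 0.051 to 0.066). Of 9 PP2C genes 5 (55.6%) were called higher (3 without control replicate 2), beside 6.27% of all genes, with a median of 0.70. *HAI2* (AT1G07430) gave 6.57, 5.54, 6.7 and 5.75 in drought, against 4.2, 4.27, 4.25 and 4.27 in the control (log2 change 1.89 ± 0.21 (SE), adjusted p = 3.1e-05). Every drought array was more than 1 log2 unit above the highest control array. *HAB1* (AT1G72770) and *PP2CA* (AT3G11410) changed by 1.13 ± 0.19, adjusted p = 0.00056 and by 0.89 ± 0.14, adjusted p = 0.00045.

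Of 29 genes known to respond to dehydration or ABA, 18 (62.1%) were called higher and 2 (6.9%) lower (1 lower without control replicate 2 or drought replicates 1 or 4), with a median of 0.93. The shares of all genes were 6.27% and 7.15%. The dehydrin *RAB18* (AT5G66400) gave 8.16, 7.31, 9.08 and 7.72 in drought, against 6.6, 6.12, 6.49 and 6.37 in the control (log2 change 1.67 ± 0.34 (SE), adjusted p = 0.0023). *RD29A* (AT5G52310), a hydrophilic protein used as a marker of dehydration, gave 8.88, 8.07, 8.44 and 7.54 in drought, against 7.05, 6.98, 6.82 and 6.87 in the control (log2 change 1.3 ± 0.34 (SE), adjusted p = 0.011). Its neighbour *RD29B* (AT5G52300) was not called, at 5.79, 4.15, 6.66 and 3.88 in drought, against 4.48, 4.47, 3.85 and 3.97 in the control (0.93 ± 0.51, adjusted p = 0.21), and only drought replicates 1 and 3 lay above the control range. The cold- and drought-induced *LTI30* (AT3G50970) and *KIN1* (AT5G15960) changed by 1.96 ± 0.29, adjusted p = 0.00022 and by 1.68 ± 0.26, adjusted p = 0.00027. In the opposite direction, *COR15B* (AT2G42530), a cold-regulated chloroplast protein, gave 5.42, 5.23, 5.1 and 5.19 in drought, against 6.4, 6.69, 6.46 and 5.86 in the control (log2 change -1.11 ± 0.21 (SE), adjusted p = 0.0012). The factor *RD26* (AT4G27410) gave 6.07, 6.13, 7.26 and 5.63 in drought, against 7.05, 7.47, 7.24 and 6.92 in the control (log2 change -0.90 ± 0.26 (SE), adjusted p = 0.018). *RD26* was not called without drought replicate 1 or 4 or control replicate 2 (log2 change -0.83 to -0.68, adjusted p 0.054 to 0.06). The mean of this list relative to the control was 1.02 and 1.48 on drought replicates 1 and 3, and 0.53 and 0.38 on replicates 2 and 4.

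**Figure D3:**
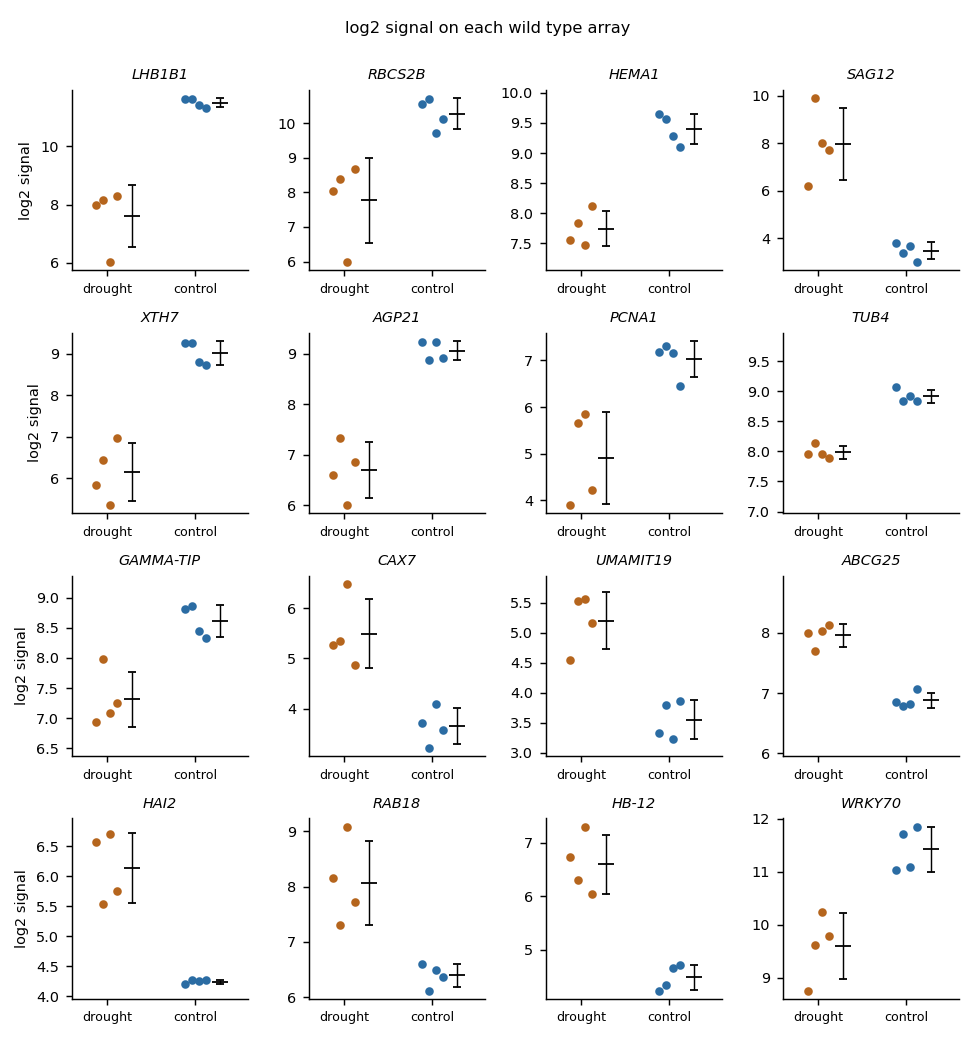
log2 signal of 16 genes on the 4 drought arrays (left in each panel) and the 4 control arrays (right), with points in the order of replicate number and the bar giving the mean and SD of each group (n = 4). Scales differ between panels, and the groups do not overlap for any of the 16 genes.

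Of 13 osmolyte genes 3 (23.1%) were called higher and 1 (7.69%) lower, beside 6.27% and 7.15% of all genes. The median was 0.13. The mean of the list relative to the control was 0.51, 0.49, 0.67 and 0.005 on the drought arrays. The lower call was lost without any 1 of drought replicates 1, 3 and 4 and control replicates 2, 3 and 4. *P5CS1* (AT2G39800), the stress-induced enzyme of proline synthesis, was at 10.61, 9.35, 10.61 and 9.21 in drought, against 10.43, 10.12, 9.79 and 9.31 in the control, and was not called (0.03 ± 0.31, adjusted p = 0.96). The enzyme that degrades proline, *ERD5* (AT3G30775), was called higher, with 8.42, 8.67, 8.45 and 8.8 in drought, against 6.67, 6.43, 7.12 and 6.58 in the control (log2 change 1.89 ± 0.18 (SE), adjusted p = 1e-05). Galactinol synthase *GolS2* (AT1G56600), which starts raffinose synthesis, gave 9.65, 9.64, 9.35 and 9.36 in drought, against 8.1, 6.91, 7.7 and 8.13 in the control (log2 change 1.79 ± 0.38 (SE), adjusted p = 0.0032).

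Starch genes were called in both directions. The small set of synthesis genes had 2 (18.2%) called higher and 2 (18.2%) lower of 11, beside 6.27% and 7.15% of all genes. Breakdown genes had 1 (5.88%) and 4 (23.5%) of 17. Of the breakdown genes 2 were called higher without drought replicate 2 or 3 or control replicate 1. None of them was called higher without drought replicate 1 or control replicate 2 or 4. *GBSS1* (AT1G32900), granule-bound starch synthase, rose (1.09 ± 0.29, adjusted p = 0.012), and the subunits *APL4* (AT2G21590) and *APL1* (AT5G19220) of ADP-glucose pyrophosphorylase changed by 1.53 ± 0.29, adjusted p = 0.0012 and by -1.2 ± 0.19, adjusted p = 0.00037. Of 22 cuticle genes 1 (4.55%) was called higher and 3 (13.6%) lower (5 lower without control replicate 4), with a median of 0.0009. *KCS2* (AT1G04220), which elongates fatty acids, rose (1.68 ± 0.18, adjusted p = 1.8e-05), while the cutin enzymes *GPAT8* (AT4G00400) and *LACS1* (AT2G47240) changed by -1.68 ± 0.20, adjusted p = 5.2e-05 and by -1.29 ± 0.19, adjusted p = 0.00022. The iron store *FER1* (AT5G01600) was higher, at 11.25, 11.11, 11.36 and 11.2 in drought, against 9.96, 9.53, 10.06 and 10.26 in the control (log2 change 1.28 ± 0.28 (SE), adjusted p = 0.0036). Of 67 cytosolic and organellar ribosomal protein genes 16 (23.9%) were called lower and none higher, beside 7.15% and 6.27% of all genes. The median of this mixed list was -0.11, and 28 members were above 0. *RPL15* (AT3G25920) of the plastid ribosome changed most (-1.3 ± 0.19, adjusted p = 0.00021).

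Limma called none of 13 genes of brassinosteroid synthesis and signalling (5 had an unadjusted p under 0.05, and 2 an adjusted p under 0.05 at less than 1.5-fold). *BES1* (AT1G19350), which activates brassinosteroid target genes, was at 7.66, 8.0, 7.92 and 7.95 in drought, against 8.27, 7.82, 8.16 and 8.19 in the control (-0.23 ± 0.13, adjusted p = 0.22). Of the brassinosteroid genes 1 was called higher without control replicate 3 or drought replicate 3, and 1 lower without control replicate 2. Of 20 genes of gibberellin metabolism and response 2 were called higher and none lower, but none was called higher without drought replicate 3 or control replicate 2 or with only the 8 wild type arrays. Auxin genes had 4 higher and 4 lower of 29 Aux/IAA repressors, and 6 higher and 7 lower of 80 SAUR genes, which take part in cell expansion. The SAUR shares of 7.5% and 8.75% were near those of all genes, 6.27% and 7.15%. Without drought replicate 3 the Aux/IAA counts were 2 and 2, and without control replicate 1 the count lower was 2. *IAA28* (AT5G25890) rose (0.80 ± 0.12, adjusted p = 0.00034) and *IAA8* (AT2G22670) fell (-1.04 ± 0.13, adjusted p = 5.8e-05), both with little spread. *GH3.5* (AT4G27260), which conjugates auxin to amino acids, gave 8.38, 8.67, 8.21 and 9.05 in drought, against 6.93, 6.98, 6.9 and 6.54 in the control (log2 change 1.74 ± 0.18 (SE), adjusted p = 2e-05). Of the cytokinin oxidases, which degrade that hormone, *CKX1* (AT2G41510) was called higher (0.83 ± 0.21, adjusted p = 0.0084) and *CKX4* (AT4G29740) lower (-1.03 ± 0.14, adjusted p = 0.00011). In ethylene signalling the F-box repressors *EBF2* (AT5G25350) and *EBF1* (AT2G25490) rose (1.29 ± 0.28, adjusted p = 0.0032 and 0.67 ± 0.11, adjusted p = 0.00041), while *ACS6* (AT4G11280), which makes the ethylene precursor, fell (-1.27 ± 0.28, adjusted p = 0.004). Its list had 2 genes called lower, 1 of them without drought replicates 1 or 4 or control replicates 1 or 2.

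Transcription factor families are set beside the 6.27% of all genes called higher and the 7.15% called lower. The homeodomain HB and HAT genes had 11 called higher and 1 lower of 45 (none lower without drought replicate 1 or 4 or control replicate 3 or 4), the bZIP family 11 and 3 of 55, and the heat shock factors 4 and 0 of 21 (1 lower without control replicate 3 or drought replicate 3). The NAC family had 16 and 6 of 100, with 2 lower without control replicate 2 and 3 without drought replicate 1. The MYB family had 11 and 9 of 125, which was 8.8% and 7.2% and near the shares of all genes, with 6 higher without control replicate 2. The ERF, DREB and RAP genes had 5 and 7 of 45. The WRKY family had 3 and 7 of 71, with 1 higher and 11 lower without drought replicate 3, and no call higher without control replicate 1 or drought replicate 2.

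*HB-12* (AT3G61890), a homeodomain factor induced by water deficit and ABA, gave 6.73, 6.29, 7.3 and 6.05 in drought, against 4.24, 4.34, 4.66 and 4.71 in the control (log2 change 2.11 ± 0.22 (SE), adjusted p = 1.7e-05). Its relative *HB-7* (AT2G46680) changed by 1.21 ± 0.30, adjusted p = 0.0079. A similar rise was that of *PIL2* (AT3G62090), a relative of the phytochrome-interacting factors, with 6.83, 6.23, 7.64 and 6.3 in drought, against 4.63, 4.28, 4.85 and 4.48 in the control (log2 change 2.19 ± 0.28 (SE), adjusted p = 8.3e-05). *HSFA6A* (AT5G43840) of the heat shock factors changed by 1.85 ± 0.32, adjusted p = 0.00071, and *MYB90* (AT1G66390), an activator of anthocyanin synthesis, by 1.76 ± 0.33, adjusted p = 0.0013. The dehydration-related *DREB2A* (AT5G05410) gave 4.71, 4.59, 5.62 and 5.02 in drought, against 4.11, 3.75, 3.91 and 4.31 in the control (log2 change 0.96 ± 0.20 (SE), adjusted p = 0.0029), and *RAP2.1* (AT1G46768) of the same superfamily rose by 1.55. *GBF3* (AT2G46270) and *bZIP11* (AT4G34590) of the bZIP family changed by 1.53 ± 0.21, adjusted p = 0.00013 and by 1.46 ± 0.20, adjusted p = 0.00012, and the NAC gene *NAC032* (AT1G77450) by 1.49 ± 0.29, adjusted p = 0.0015.

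Among the falls, *MYB77* (AT3G50060) of the MYB family gave 4.43, 4.73, 4.89 and 5.13 in drought, against 7.9, 7.86, 6.72 and 7.62 in the control (log2 change -2.73 ± 0.23 (SE), adjusted p = 4.6e-06), with the groups separated by more than 1 log2 unit. The related *MYB73* (AT4G37260) changed by -1.38 ± 0.19, adjusted p = 0.00013. Beside *ERF6*, *ERF105* (AT5G51190) and *ERF104* (AT5G61600) of the ethylene response factors changed by -2.04 ± 0.42, adjusted p = 0.0022 and by -1.97 ± 0.30, adjusted p = 0.00027. On control replicate 3 all 3 of these genes were lower than on the other control arrays. *BZIP61* (AT3G58120) and *BZIP34* (AT2G42380), which are related bZIP factors, changed by -2.3 ± 0.41, adjusted p = 0.00082 and by -1.86 ± 0.36, adjusted p = 0.0014, and for both drought replicate 3 was lowest. *bHLH115* (AT1G51070) of the bHLH family gave 5.6, 5.95, 5.58 and 5.95 in drought, against 7.32, 7.21, 6.99 and 7.22 in the control (log2 change -1.41 ± 0.12 (SE), adjusted p = 4.6e-06).

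Salicylate defence genes were lower in drought, with 7 of 12 (58.3%) called lower, beside 7.15% of all genes. None was called higher, and the median was -0.96. *PR1* (AT2G14610), a secreted antimicrobial protein and the standard marker of this pathway, gave 2.9, 3.93, 4.01 and 2.85 in drought, against 5.55, 6.99, 5.25 and 7.53 in the control (log2 change -2.91 ± 0.69 (SE), adjusted p = 0.0057). *PR5* (AT1G75040) gave 5.06, 5.34, 5.52 and 4.59 in drought, against 6.24, 8.52, 6.53 and 8.92 in the control (log2 change -2.42 ± 0.51 (SE), adjusted p = 0.0028). Control replicates 2 and 4 were higher than control replicates 1 and 3 for both genes, and the mean of the list relative to the control mean was 0.23 and 0.71 on the first pair and -0.57 and -0.37 on the other, against -1.47, -0.92, -0.75 and -1.15 on the drought arrays. The regulator *PAD4* (AT3G52430) changed by -1.08 ± 0.27, adjusted p = 0.0085, and the factors *WRKY70* (AT3G56400) and *WRKY54* (AT2G40750), which act in this pathway, by -1.82 ± 0.25, adjusted p = 0.00015 and by -2.07 ± 0.33, adjusted p = 0.00037. *WRKY38* (AT5G22570) fell by the most of its family (log2 change -2.77 ± 0.51 (SE), adjusted p = 0.0011), although drought replicate 3 overlapped the control.

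Of 28 heat shock proteins 6 (21.4%) were called higher and 1 (3.57%) lower, beside 6.27% and 7.15% of all genes. The count lower was 2 without drought replicate 3 and 0 without any 1 of drought replicates 1, 2 and 4 and control replicates 2 and 4. *HSP70* gave 10.12, 9.82, 10.45 and 9.22 in drought, against 7.4, 7.14, 7.6 and 7.71 in the control (log2 change 2.43 ± 0.24 (SE), adjusted p = 1.5e-05). The inducible cytosolic chaperone *HSP90.1* (AT5G52640) gave 6.42, 6.12, 6.84 and 5.18 in drought, against 4.1, 3.92, 4.53 and 4.32 in the control (log2 change 1.92 ± 0.34 (SE), adjusted p = 0.00091). Of 33 autophagy genes 4 (12.1%) were called higher and 1 (3.03%) lower. The count higher was 2 without control replicate 1. There were 2 called lower without drought replicate 4 and none without drought replicate 2. Of the ubiquitin-like proteins that coat autophagosomes, *ATG8B* (AT4G04620) and *ATG8G* (AT3G60640) changed by 0.99 ± 0.20, adjusted p = 0.0019 and by 0.80 ± 0.17, adjusted p = 0.0031. Glutathione S-transferases, which detoxify reactive compounds, had 2 (4.17%) called higher and 5 (10.4%) lower of 48, beside 6.27% and 7.15% of all genes. The count higher was 1 without drought replicates 1 or 2 or control replicates 1, 2 or 3. *GSTU18* (AT1G10360) changed by -1.46 ± 0.14, adjusted p = 1e-05. Of 14 scavengers of reactive oxygen 14.3% were called lower and none higher. The only calls were the thylakoid ascorbate peroxidase *TAPX* (AT1G77490) and the plastid superoxide dismutase *CSD2* (AT2G28190), at -1.21 ± 0.20, adjusted p = 0.00057 and at -0.94 ± 0.20, adjusted p = 0.0033.

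Clock genes had 6 (35.3%) called higher and 1 (5.88%) lower of 17, beside 6.27% and 7.15% of all genes, and none lower without drought replicate 4 or control replicate 3. Transcripts of this group cycle over the day, and the hour of sampling was not stated for either group, so a difference in clock phase and one in level cannot be told apart. *RVE8* (AT3G09600), a morning factor, gave 8.47, 8.2, 8.35 and 8.45 in drought, against 7.08, 7.25, 7.13 and 7.15 in the control (log2 change 1.22 ± 0.09 (SE), adjusted p = 2.6e-06). The morning factor *LHY* (AT1G01060) gave 8.45, 8.53, 8.23 and 8.33 in drought, against 7.27, 6.8, 7.28 and 7.06 in the control (1.28 ± 0.14, adjusted p = 2.5e-05). Its close relative *CCA1* (AT2G46830) gave 9.86, 9.34, 9.68 and 9.96 in drought, against 8.91, 8.85, 8.54 and 8.55 in the control (1.0 ± 0.14, adjusted p = 0.00018). The evening gene *TOC1* (AT5G61380) was at 7.13, 7.15, 7.39 and 7.08 in drought, against 7.46, 7.81, 7.54 and 7.7 in the control (-0.44 ± 0.14, adjusted p = 0.033). *GI* (AT1G22770) was at 9.38, 9.05, 9.03 and 8.88 in drought, against 8.83, 8.56, 8.56 and 8.81 in the control (0.39 ± 0.12, adjusted p = 0.024). Neither passed 1.5-fold.

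**Figure D4:**
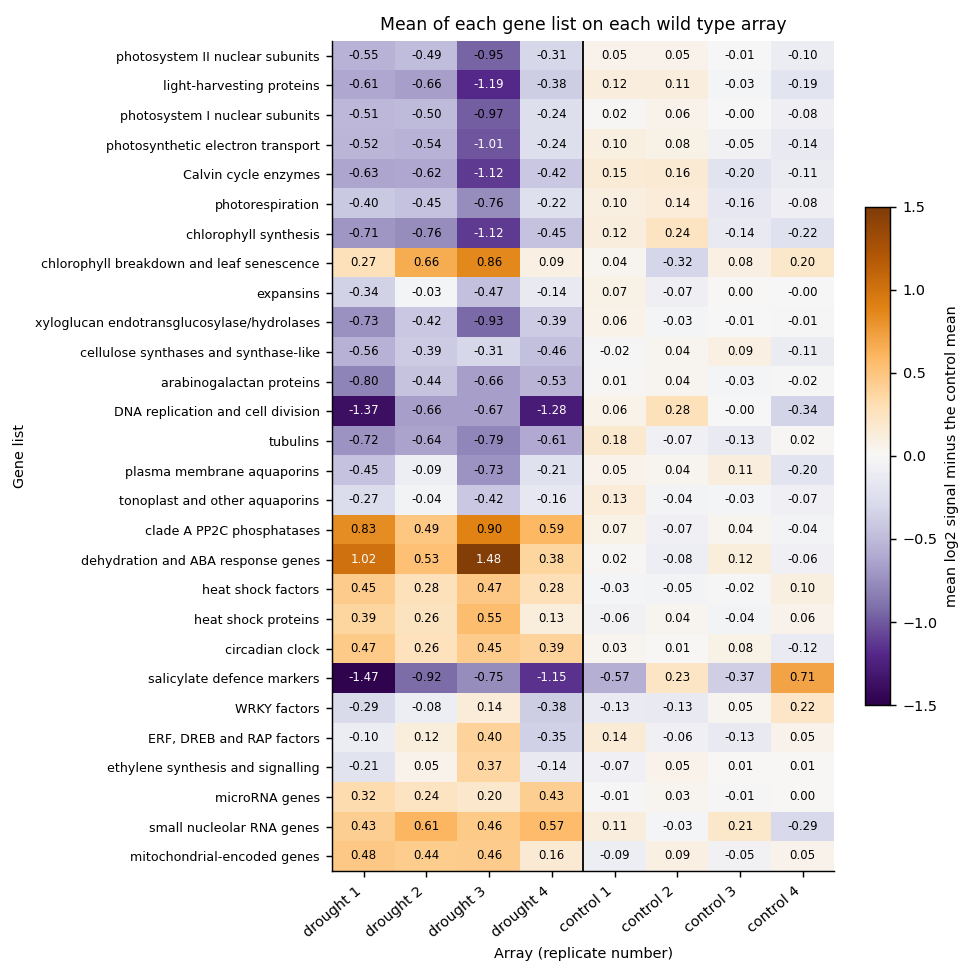
Each row is a gene list and each column an array, with the 4 drought arrays left of the 4 control arrays, and the colour gives the mean log2 signal of the list minus its mean over the control arrays. Light-harvesting proteins were at -0.61, -0.66, -1.19 and -0.38 on the drought arrays in order of replicate number, and dehydration and ABA response genes at 1.02, 0.53, 1.48 and 0.38.

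Non-coding genes were called higher at a larger share than protein-coding genes. Of 174 microRNA genes 36 (20.7%) were called higher and 1 lower, of 68 small nucleolar RNA genes 21 (30.9%) and none, of 222 long non-coding RNA genes 41 (18.5%) and 6, and of 165 other non-coding RNA genes 46 (27.9%) and 7. Protein-coding genes had 5.89% called higher and 7.42% lower. Of the microRNA genes 96 had a mean signal below 3, where arrays resolve little. With the 25% of genes of lowest mean signal left out, 28 microRNA genes were called higher. The count lower of microRNA genes was 2 without drought replicate 3 and 3 without drought replicate 4. The count lower of long non-coding genes was 3 without control replicate 3, and that of other non-coding genes 3 without control replicate 2 or 4. Of 92 mitochondrial-encoded genes 18 were called higher and none lower, 12 to 27 when arrays were left out in turn, and the mean relative to the control was 0.44 to 0.48 on drought replicates 1 to 3 and 0.16 on replicate 4. The probes of a microRNA gene read its precursor locus and not the mature microRNA.

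*MIR172a* gave 5.62, 5.48, 5.39 and 5.64 in drought, against 2.89, 2.78, 2.37 and 3.43 in the control (log2 change 2.67 ± 0.36 (SE), adjusted p = 0.00012). The following microRNA genes were named after their values had been seen. *MIR159a* (AT1G73687), whose product targets MYB factors, gave 5.62, 5.7, 5.39 and 5.36 in drought, against 3.65, 3.66, 3.35 and 3.29 in the control (log2 change 2.03 ± 0.18 (SE), adjusted p = 4.6e-06). *MIR403* (AT2G47275), whose product targets *AGO2*, gave 8.36, 8.17, 7.85 and 8.37 in drought, against 6.29, 6.25, 6.33 and 6.66 in the control (log2 change 1.8 ± 0.14 (SE), adjusted p = 2.6e-06). For both, the lowest drought array was more than 1 log2 unit above the highest control array. *MIR393b* (AT3G55734), which targets auxin receptors, changed by 2.05 ± 0.25, adjusted p = 5.9e-05, *MIR396b* (AT5G35407) by 1.77 ± 0.29, adjusted p = 0.00046, *MIR164b* (AT5G01747) by 1.76 ± 0.21, adjusted p = 4.5e-05 and *MIR160c* (AT5G46845) by 1.76 ± 0.17, adjusted p = 1.2e-05. The trans-acting siRNA gene *TAS3* (AT3G17185) went the other way, with 3.86, 4.47, 3.6 and 4.59 in drought, against 6.03, 6.28, 5.46 and 5.59 in the control (log2 change -1.71 ± 0.24 (SE), adjusted p = 0.00015). Of 31 known targets of these microRNAs, a list also drawn up after the values had been seen, 8 (25.8%) were called higher and none lower, with a median of 0.31. Of all genes 6.27% were called higher and 7.15% lower. With the 25% of genes of lowest mean signal left out, 5 targets were called higher. Among the 8 targets called with all genes kept, *GRF7* (AT5G53660), a growth-regulating factor, gave 4.39, 4.38, 5.35 and 4.03 in drought, against 2.77, 3.11, 2.68 and 2.23 in the control (log2 change 1.84 ± 0.24 (SE), adjusted p = 8.3e-05). *AGO2* (AT1G31280) changed by 0.73 ± 0.18, adjusted p = 0.0074.

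**Figure D5:**
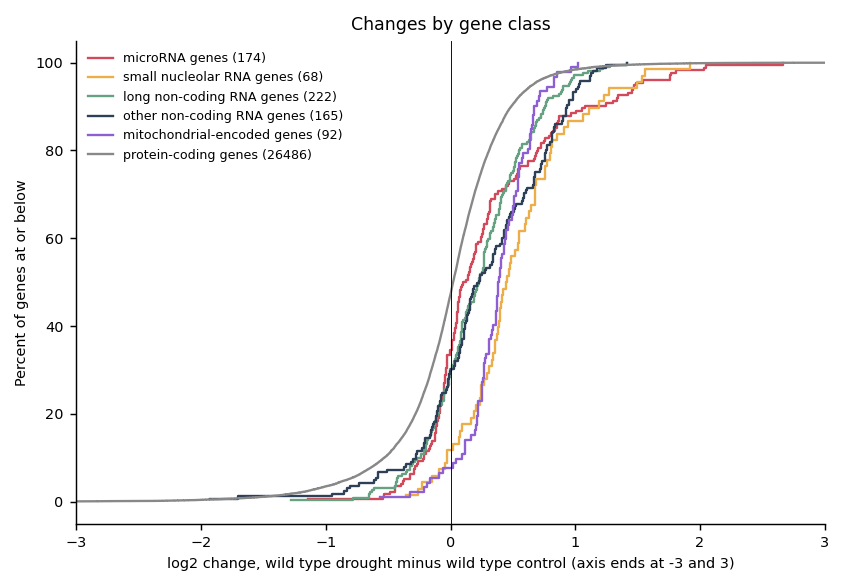
Cumulative share of genes at or below each log2 change (drought minus control) for each gene class. The curves of the non-coding classes lie right of that of protein-coding genes, with medians of 0.45 for small nucleolar RNA genes and 0.11 for microRNA genes against 0.02 for protein-coding genes.

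The drought arrays also differed among themselves. The genes in this paragraph that the naming rule did not give were picked for the difference between drought replicates 3 and 4, so no test is given of that difference. The jasmonate-responsive defensin *PDF1.2* (AT5G44420) was at 5.03, 8.02, 8.98 and 1.21 in drought, against 8.73, 5.87, 8.87 and 9.0 in the control. The chitin-binding protein *PR4* (AT3G04720) was at 7.2, 9.21, 11.2 and 5.24 in drought, against 9.89, 9.93, 10.61 and 10.44 in the control. Neither was called (-2.31 ± 1.23, adjusted p = 0.2 and -2.0 ± 0.83, adjusted p = 0.093), and in both drought replicate 3 was highest and replicate 4 lowest. *JAZ10* (AT5G13220), a repressor of jasmonate responses, was at 7.75, 8.32, 9.66 and 4.19 in drought, against 6.98, 7.35, 9.48 and 8.38 in the control. The opposite order was seen for *XTH9* (AT4G03210), a wall enzyme, which was at 7.11, 8.41, 5.5 and 8.63 in drought, against 9.26, 9.22, 9.2 and 8.82 in the control. *SPCH* (AT5G53210), the factor that starts the stomatal lineage, was at 5.32, 5.77, 4.03 and 6.1 in drought, against 6.57, 6.55, 6.27 and 5.93 in the control. Both were called lower (-1.71 ± 0.48, adjusted p = 0.016 and -1.02 ± 0.32, adjusted p = 0.029). *XTH9* was not called when only the 8 wild type arrays were fitted (adjusted p = 0.066). *SPCH* was not called without drought replicate 1 or 3 or control replicate 1 or 2 or 3 (log2 change -1.04 to -0.60, adjusted p 0.05 to 0.074). The targets of the artificial microRNAs of the other arrays, *NAA10* (AT5G13780) and *NAA15* (AT1G80410), were not called in drought (0.13 ± 0.34, adjusted p = 0.83 and 0.15 ± 0.32, adjusted p = 0.8). Both SEs and p-values pool the arrays of plants with those artificial microRNAs, so they do not reflect the wild type spread alone. *NAA15* gave 9.29, 9.28, 9.19 and 9.24 in drought, against 9.1, 9.2, 9.0 and 9.12 in the control. Its SD was 0.04 in drought and 0.08 in the control.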

How the data were processed

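Total RNA of leaves was hybridised to Affymetrix AraGene arrays, 4 arrays for each of 4 groups. The deposited table holds log2 signals per gene, which the authors made by RMA with quantile normalization, as the submitters' notes give it, and all 16 arrays share the same sorted values. Probe sets followed a custom CDF with TAIR-based gene definitions, of which the TAIR release is not given in the sources used here, and the authors ran their own analysis of variance in SAS JMP Genomics. No scanner intensities were analysed, and the number of arrays limits the precision.

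The main test was limma 3.58.1 (R 4.3.3), with 1 mean per group over all 16 arrays, empirical Bayes moderation and Benjamini-Hochberg adjustment over 27827 genes. Genes with an adjusted p under 0.05 and a change over 1.5-fold were called. The test was checked on simulated data. Each p-value sets the difference between drought and control against the moderated spread within groups, pooled over all 16 arrays. Symbols came from the RefSeq table, in which 27241 loci were found, or from the gene lists where that table held none.

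The naming rule took the 10 largest rises and falls with a symbol and no overlap, the largest changes of each list, the leading transcription factors and a set of textbook genes. Not every gene of the rule is described, so a larger change in a list can be unnamed. Examples are *CKX5* (AT1G75450) at 1.38 and *GSTU20* (AT1G78370) at -1.59. Genes named outside this rule were chosen after their values were seen. Members and lists were chosen with earlier results of these data known. Alternatives were the fold minimum, the arrays fitted, a replicate block, a filter on low signals, cyclic loess, array weights, a variance trend and leaving out each array.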

Additional observations from a re-analysis of the deposited data

Results flagged for a closer look

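For each of the 180 genes named, the 4 arrays of each wild type group were examined for an array whose distance to its nearest neighbour was so large a share of the range of the group that it passed Dixon's critical value for 4 samples. Of 360 such groups 25 met it, and chance alone gives about 1 in 20. Drought replicate 3 was the array concerned in 7 cases and control replicate 3 in 5, and each other array in 1 to 3. Values are log2 signals.

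On drought replicate 1 this held for *CAB2* at 3.52 (above the others at 2.66 to 2.77) and *TCH4* at 4.69 (below the others at 5.45 to 5.61). On drought replicate 2 this held for *CDKB2;1* at 5.42 (above the others at 4.77 to 4.87) and *HIS1-3* at 6.96 (below the others at 7.63 to 7.69). On drought replicate 3 this held for *GSTU18* at 5.95 (below the others at 6.38 to 6.46), *LHB1B1* at 6.02 (below the others at 7.97 to 8.29), *RCA* at 12.15 (below the others at 12.42 to 12.46), *EXPA8* at 5.9 (below the others at 7.84 to 8.22), *EXLB1* at 8.04 (above the others at 7.36 to 7.44), *XCP1* at 4.26 (below the others at 4.46 to 4.5) and *RBCS1B* at 7.66 (below the others at 8.52 to 8.65). On drought replicate 4 this held for *PGK2* at 8.27 (above the others at 7.99 to 8.01), *SEN1* at 4.47 (below the others at 5.65 to 5.71) and *DiT1* at 9.45 (below the others at 9.85 to 9.87). On control replicate 1 this held for *CIPK25* at 3.68 (above the others at 3.05 to 3.11). On control replicate 2 this held for *NYE2* at 4.24 (below the others at 5.23 to 5.34), *ABCG22* at 8.46 (below the others at 8.7 to 8.72) and *PDF1.2* at 5.87 (below the others at 8.73 to 9.0). On control replicate 3 this held for *PROT2* at 4.79 (above the others at 3.96 to 4.09), *BAM5* at 10.55 (above the others at 8.51 to 8.85), *ERF6* at 6.8 (below the others at 8.33 to 8.55), *SEN1* at 8.02 (above the others at 6.95 to 7.09) and *ERF105* at 7.15 (below the others at 8.54 to 8.78). On control replicate 4 this held for *GSTU18* at 7.5 (below the others at 7.81 to 7.87) and *XTH9* at 8.82 (below the others at 9.2 to 9.26).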

How the results depend on the processing

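Without a minimum fold 6865 genes were called (3859 higher, 3006 lower), with a 2-fold minimum 1294 (441 higher, 853 lower), and with limma's test against a 1.5-fold threshold 404 (141 higher, 263 lower). The other 9 alternatives kept the 3 counts within 1.5 times of 3736, 1745 and 1991. Leaving out each array in turn gave 3283 to 3885 calls, 1534 to 1859 of them higher and 1749 to 2087 lower. With cyclic loess in place of the deposited scaling, 1503 genes were called higher and 2203 lower.

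Whether the replicate numbers pair the samples is not known. The deviations of same-numbered arrays correlated at 0.086, -0.13, 0.13 and -0.195. Those of arrays with unlike numbers correlated at -0.23 to 0.21, so these values cannot decide it. With the replicate number as a block 3759 genes were called over 16 arrays and 3154 over the 8 wild type arrays. Of the 163 called genes named in this text, 8 lost their call without at least 1 array. Further genes that the naming rule gave, but that are not described here, also lost it. Among them were *NAC004* (AT1G02230), *PSAF* (AT1G31330), *GolS3* (AT1G09350) and *ARR15* (AT1G74890), so the 8 do not measure how often calls of the rule were lost. With only the 8 wild type arrays fitted, *PIP1;3*, *XTH9*, *RD26*, *VSP1*, *ORE1*, *CESA4* and *SPCH* were not called (adjusted p 0.051 to 0.094). Direction turned for 4 genes that were not called. *RCA* changed by 0.0202 under cyclic loess and by 0.0161 with array weights, and by -0.0412 to 0.0635 when arrays were left out in turn, above 0 without control replicate 1 or drought replicate 3. With arrays left out in turn, *P5CS1* changed by -0.192 to 0.274 (below 0 without drought replicates 1 or 3 or control replicates 3 or 4). *EXPA8* changed by -0.481 to 0.293 (above 0 without drought replicate 3) and *JAZ10* by -1.3 to 0.526 (above 0 without drought replicate 4). The cause was not tested.

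A mean signal below 3, where arrays resolve little, was found for 5969 genes. Of the named genes that were called, *VND7*, *GRP9* and *TPS10* averaged below 3 in drought, and *MIR172a*, *LTI30*, *HSFA6A* and *GRF7* averaged below 3 in the control, so the sizes of these changes are uncertain. The search for promoter motifs was not run.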
